A study of Homo sapiens with 15 samples.

Results

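The genes described here were 36 genes of DNA replication and mitosis, taken as a list of names. Accessible chromatin around them was read from ATAC-seq, in which a transposase cuts open DNA and leaves sequencing adapters there. Peaks of 15 libraries were merged into 222814 regions wherever they overlapped by at least 1 bp, and a region counted as called in a library when a peak of that library overlapped it. Of these regions, 581 lay inside the 36 genes or within 50 kb of either end of one. They were split into 58 regions within 1 kb of a gene end and 523 regions farther away, called near regions below.

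All libraries came from HPAF-II, an established line from a human pancreatic adenocarcinoma. They were given 1 µM Lgk974, an inhibitor of porcupine, or the solvent DMSO, for 24 h or 48 h. Porcupine is the acyltransferase that WNT proteins need for secretion, so the treatment withdraws WNT signals that cells make for themselves. Each treatment had 4 libraries at 24 h, and at 48 h DMSO had 4 and Lgk974 had 3. The groups differed in agent and time only, and no untreated group was analysed here. The labels do not say whether replicates came from separate cultures, so every p-value measures the spread between these libraries, which may be technical.

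Replication origins are licensed in G1, when the origin recognition complex, CDC6 and CDT1 load the MCM2-7 helicase onto DNA. MCM10, CDC45 and the GINS complex turn that helicase on in S phase, where the clamp PCNA and its loader RFC hold polymerases on the template, while cyclins, CDK1, PLK1 and the Aurora kinases drive the later mitosis. Many of these promoters are textbook targets of E2F factors, which act late in G1, or of complexes that bind CHR and CCAAT elements and act in G2, and WNT signalling is a known source of proliferative drive in cells that depend on it.

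The peak lists held 53610 to 127886 peaks per library. The depth in reads was not available in the lists used here, so a region that was not called may be open below that library's threshold. By mean Jaccard index with the other lists, 3 libraries stood apart: DMSO 24 h replicate 3 at 0.376, Lgk974 48 h replicate 3 at 0.478 and Lgk974 24 h replicate 3 at 0.513, against 0.583 to 0.656 for the rest. DMSO 24 h replicate 3 had the longest list, and 36.6% of its regions were found in no other library. The other pair that stood apart had the shortest lists. Against the cell label, 9 of 11 pancreatic ductal epithelial marker genes had a gene end called in all 15 libraries, as did 3 of 5 leukocyte, 1 of 5 fibroblast and 0 of 4 endothelial markers, against 55.7% of all protein-coding genes. No end was called in any library for the fibroblast and endothelial markers LUM, DCN, TEK, VWF and PECAM1. The promoter sequences below come first because a start site inside an open region was the most constant property of these genes.

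The 250 bases before the RefSeq start are printed for 12 genes, with 1 or 2 from each role and both genes whose ends were called in 12 or fewer libraries (ORC1 and E2F2). They are RefSeq sequence on GRCh38.p14, read 5′ to 3′ along the strand of the gene, and the last base printed lies just before the start. Capitals mark 3 kinds of match on either strand. E2F-like words were TTTCCCGC, TTTGGCGC, TTTCGCGC, TTTGCCGC, TTTGGCGG, TTCCCGCC and TTGGCGCC, several of which can overlap each other. CHR words were TTTGAA and TTCGAA, and the CCAAT word was CCAAT.
MCM6 (chr2:135876444-135876693, minus strand): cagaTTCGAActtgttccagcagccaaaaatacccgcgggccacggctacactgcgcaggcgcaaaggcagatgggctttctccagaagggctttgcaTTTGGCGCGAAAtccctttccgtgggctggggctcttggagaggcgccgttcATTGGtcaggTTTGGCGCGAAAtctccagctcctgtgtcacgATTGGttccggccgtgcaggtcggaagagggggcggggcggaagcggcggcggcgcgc
CDT1 (chr16:88803539-88803788, plus strand): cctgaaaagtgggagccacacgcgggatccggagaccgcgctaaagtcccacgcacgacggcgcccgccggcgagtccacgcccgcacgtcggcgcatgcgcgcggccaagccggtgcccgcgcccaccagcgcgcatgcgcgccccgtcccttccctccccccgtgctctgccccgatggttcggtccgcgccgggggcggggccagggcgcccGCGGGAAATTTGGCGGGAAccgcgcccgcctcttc
ORC1 (chr1:52404424-52404673, minus strand): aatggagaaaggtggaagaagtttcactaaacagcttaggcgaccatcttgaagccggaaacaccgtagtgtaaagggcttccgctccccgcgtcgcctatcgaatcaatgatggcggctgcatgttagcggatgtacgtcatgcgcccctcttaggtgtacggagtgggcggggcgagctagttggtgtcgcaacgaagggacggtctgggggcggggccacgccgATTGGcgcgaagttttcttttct
GINS2 (chr16:85688955-85689204, minus strand): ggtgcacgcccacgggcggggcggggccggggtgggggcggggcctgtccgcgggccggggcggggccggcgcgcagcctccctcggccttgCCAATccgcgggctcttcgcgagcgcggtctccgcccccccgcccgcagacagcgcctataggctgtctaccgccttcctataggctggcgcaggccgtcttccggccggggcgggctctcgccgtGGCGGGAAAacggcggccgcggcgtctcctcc
PCNA (chr20:5126623-5126872, minus strand): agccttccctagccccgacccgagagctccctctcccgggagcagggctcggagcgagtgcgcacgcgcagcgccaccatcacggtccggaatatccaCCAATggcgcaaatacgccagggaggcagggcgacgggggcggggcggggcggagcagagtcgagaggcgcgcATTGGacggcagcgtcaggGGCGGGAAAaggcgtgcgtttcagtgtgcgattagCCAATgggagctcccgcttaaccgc
TYMS (chr18:657403-657652, plus strand): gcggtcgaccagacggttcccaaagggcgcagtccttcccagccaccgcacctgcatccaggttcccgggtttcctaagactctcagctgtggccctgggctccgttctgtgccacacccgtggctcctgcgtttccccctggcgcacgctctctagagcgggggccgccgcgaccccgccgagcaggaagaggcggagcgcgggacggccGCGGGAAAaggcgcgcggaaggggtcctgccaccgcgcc
E2F1 (chr20:33686386-33686635, minus strand): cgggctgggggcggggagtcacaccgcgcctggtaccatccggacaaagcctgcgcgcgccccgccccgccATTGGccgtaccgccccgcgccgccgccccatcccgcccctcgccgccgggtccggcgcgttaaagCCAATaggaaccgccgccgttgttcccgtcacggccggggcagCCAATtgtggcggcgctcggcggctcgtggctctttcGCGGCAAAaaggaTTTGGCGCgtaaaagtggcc
E2F2 (chr1:23531234-23531483, minus strand): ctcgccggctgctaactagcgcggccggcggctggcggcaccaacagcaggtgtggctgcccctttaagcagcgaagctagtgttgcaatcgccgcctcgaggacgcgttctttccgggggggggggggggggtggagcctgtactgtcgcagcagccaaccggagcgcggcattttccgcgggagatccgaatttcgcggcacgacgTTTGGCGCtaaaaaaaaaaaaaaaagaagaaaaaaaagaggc
CCNB2 (chr15:59104896-59105145, plus strand): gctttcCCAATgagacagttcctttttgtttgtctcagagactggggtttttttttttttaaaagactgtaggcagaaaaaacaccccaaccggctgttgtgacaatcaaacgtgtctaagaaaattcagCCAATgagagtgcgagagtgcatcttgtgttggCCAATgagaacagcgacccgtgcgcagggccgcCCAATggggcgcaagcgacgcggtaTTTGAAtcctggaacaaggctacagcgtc
CDK1 (chr10:60778081-60778330, plus strand): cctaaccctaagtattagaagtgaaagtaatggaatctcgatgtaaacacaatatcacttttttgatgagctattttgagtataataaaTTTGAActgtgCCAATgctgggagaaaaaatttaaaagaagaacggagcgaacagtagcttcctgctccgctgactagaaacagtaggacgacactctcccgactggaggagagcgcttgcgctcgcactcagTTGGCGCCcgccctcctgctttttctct
CENPA (chr2:26785806-26786055, plus strand): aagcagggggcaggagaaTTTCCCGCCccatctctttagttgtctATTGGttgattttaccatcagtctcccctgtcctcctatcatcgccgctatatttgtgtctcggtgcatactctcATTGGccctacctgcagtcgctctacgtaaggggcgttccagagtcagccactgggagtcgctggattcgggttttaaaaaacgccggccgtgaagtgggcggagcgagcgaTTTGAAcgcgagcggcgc
TOP2A (chr17:40417897-40418146, minus strand): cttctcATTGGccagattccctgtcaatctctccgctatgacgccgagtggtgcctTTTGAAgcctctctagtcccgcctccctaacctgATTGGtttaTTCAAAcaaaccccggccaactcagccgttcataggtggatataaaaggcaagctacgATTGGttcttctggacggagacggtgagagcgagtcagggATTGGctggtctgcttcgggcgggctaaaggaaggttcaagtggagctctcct

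These matches were unevenly spread over the roles. Of 33 members with an entry in the promoter table, 14 (42.4%) held an E2F-like word, against 7.93% of 15811 protein-coding genes, 10.6% of the 8335 genes whose start lay in a region called in every library, and 22.5% of 71 other genes of the pathway. A CHR word was found in 9 members (27.3%), against 12% of all promoters and 29.6% of the other pathway genes. The CCAAT word was found in 24 (72.7%), against 34.4% and 63.4%. Both CHR and CCAAT words were present in 8 members (24.2%), against 4.69% of all promoters and 25.4% of the other pathway genes. No word of any kind was found for CDC45, MCM2 and RFC2. They make up 9.09% of the members, against 53.9% of all promoters and 28.2% of the other pathway genes. The median GC content of the member promoters was 62.8%, against 62% for all genes. MCM4, MCM5 and AURKA were not in the table.

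Among the origin licensing genes, 5 of 9 held an E2F-like word (CDC6, CDT1, MCM3, MCM6 and MCM7), and 1 held a CHR word (MCM6). Counted with −1 as the base before the start, all 3 E2F-like words of CDT1, which loads the helicase together with CDC6, fell between −35 and −17. In MCM6, a helicase subunit, a TTTGGCGC word overlapped a reverse-strand match at 2 places, starting at −152 and −90. The clamp and loader genes PCNA, RFC3 and RFC4 held E2F-like words, as did E2F1 and E2F2 themselves. No CHR word was found in the helicase activation, clamp and loader, nucleotide supply or E2F genes. Among the cyclins, kinases and the APC/C activator of mitosis, 4 of 7 held a CHR word (CCNB2, CDC20, CDK1 and PLK1) and 7 of 7 a CCAAT word, while 1 of 7 (CDK1) held an E2F-like word. BUB1B and CENPA, with roles in the spindle checkpoint and the centromere, and TOP2A and MKI67 held CHR words too. In CCNB2, PLK1 and MKI67 a TTTGAA word began at −29. CCNB2, which encodes cyclin B2, had 4 CCAAT words, which began at −244, −120, −87 and −54. These matches are descriptions of letters, and binding was not measured.

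Start sites of these genes lay in open chromatin in nearly every library. Of the 33 members with a RefSeq start, 31 (93.9%) had it inside a region called in all 15 libraries, against 8335 of 15811 protein-coding genes (52.7%), while 32.1% of all genes had it in no region at all. By gene ends, 34 of the 36 members (94.4%) had an end called in all 15 libraries, against 11128 of 19970 protein-coding genes (55.7%). The other 88 genes of the pathway gave 84 (95.5%). Among those, only SMC2, a condensin subunit, had an end called in 12 or fewer libraries. No library called an end of the RefSeq extent of SMC2, yet its promoter-table start, 6046 bp inside that extent, was called in 15. ORC1, the largest subunit of the origin recognition complex, was the same case among the members: its start, 5080 bp inside the extent, lay in a region of 1481 bp called in all 15 libraries, which an end of PRPF38A shares. In 8 members another gene's end lay within 1 kb of the start region (BBS7 beside CCNA2, UFD1 beside CDC45, TPRA1 beside MCM2, AP4M1 beside MCM7, PRPF38A beside ORC1, VPS35 beside ORC6, CDS2 beside PCNA and DCTN5 beside PLK1). Such an end could be the start of the other gene or its far end. Which gene each peak serves was not measured.

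**Figure D1:**
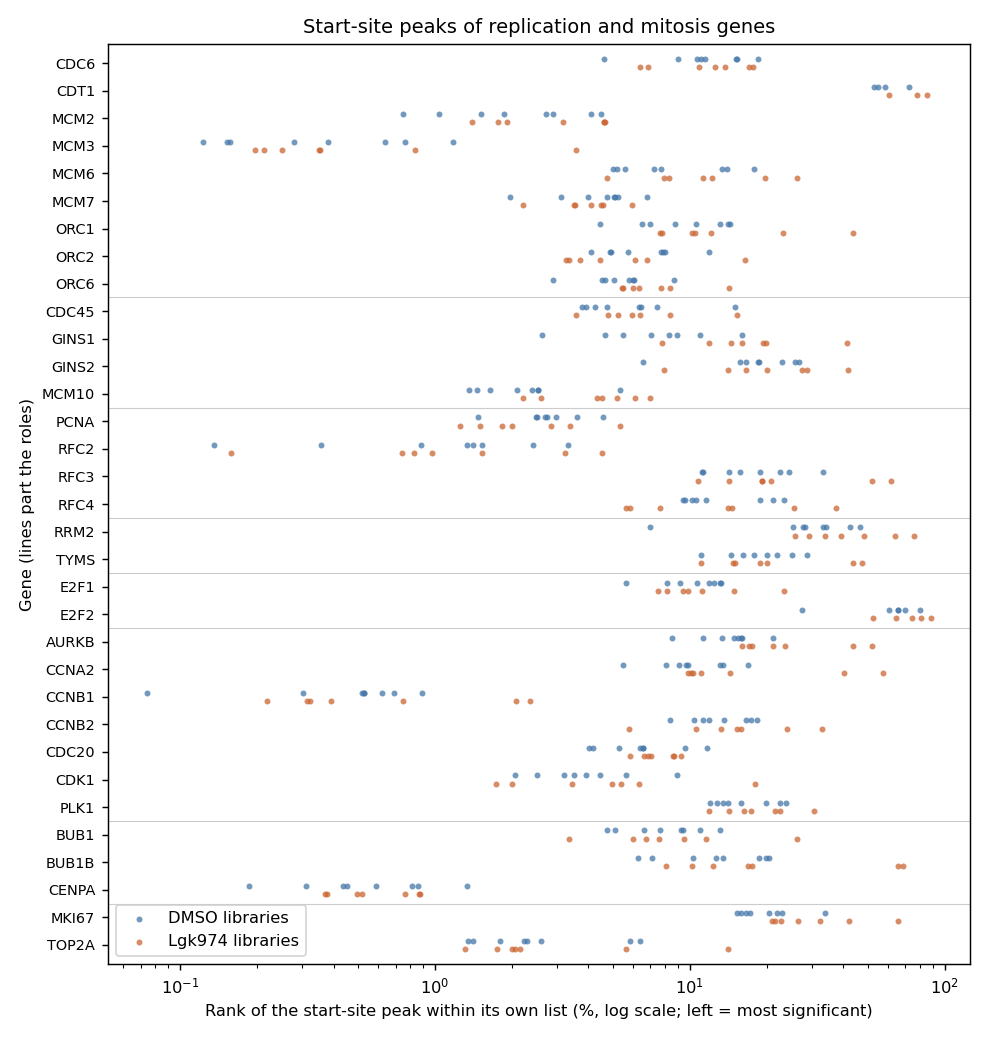
The rank of each start-site peak among all peaks of its own library is plotted by gene, in percent on a log axis, with 1 point per library that called it and lines between roles. MCM3, CCNB1 and CENPA have medians of 0.351%, 0.53% and 0.519%, and CDT1 and E2F2 have medians of 60.5% and 65.6%.

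The start peaks differed widely in strength. Each list was ranked by the −log10 p that the authors' peak caller gave, so that a low percentage means a strong peak within its own library. Ranks were not tested between libraries, and the ranges below run over lists of unequal length. At BUB1B the highest values, 68.4% and 65.6%, came from Lgk974 24 h and 48 h replicate 3, which had the shortest lists. At CENPA the highest came from DMSO 24 h replicate 3, the longest. Over the 31 members with a start region called in all libraries, the median rank ran from 0.351% to 33.8%, with a median of 8.25%, and 30 of the 31 stood at 25% or better. Ranks are not given here for the 8335 protein-coding genes with such a start. Whether these ranks are particular to the members was therefore not tested. MCM3, a subunit of the helicase, had the best median rank, with a lowest value of 0.123% and a highest of 3.57%. CCNB1, encoding cyclin B1, ranged from 0.0743% to 2.37% around a median of 0.53%, and CENPA, the centromeric histone, from 0.187% to 1.33% around 0.519%. RFC2, TOP2A, MCM10, PCNA and MCM2 followed with medians of 1.33%, 2.15%, 2.54%, 2.70% and 2.72%. These are a loader subunit, a DNA topoisomerase, a helicase activator, the sliding clamp and another helicase subunit, so strong start peaks were found in several roles. RRM2, the small subunit of ribonucleotide reductase, had the weakest constant start peak, with a median of 33.8%, a lowest value of 6.98% and a highest of 75.8%. MKI67, the gene of the Ki-67 antigen, was second weakest at a median of 22%, from 15.3% to 65.6%.

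E2F2 and CDT1 were the exceptions. The start of E2F2, one of the activating E2F factors, lay in no region. Upstream, 18 bp away, a region of 404 bp at chr1:23531251-23531654 was called in 11 libraries: 3 of 4 with DMSO and 3 of 4 with Lgk974 at 24 h, and 3 of 4 and 2 of 3 at 48 h (two-sided exact permutation p = 0.939). It covers most of the E2F2 promoter printed above, with its TTTGGCGC word. Inside the gene, chr1:23530517-23531105 was called in 8 libraries, in 4 of 4 with DMSO and 1 of 4 with Lgk974 at 24 h and in 2 of 4 and 1 of 3 at 48 h (exact p = 0.133). Either way, an end of E2F2 was called in 12 libraries, 7 of 8 with DMSO and 5 of 7 with Lgk974 (exact p = 0.571, Benjamini-Hochberg adjusted p = 1). It was the only member gene with an end that could be tested; of 1982 gene ends tested, 1.56% had more calls and 2.88% fewer with Lgk974 at an unadjusted p under 0.05, and 0 after adjustment.

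CDT1 had its start in a region called in only 7 libraries, 3 with DMSO and 1 with Lgk974 at 24 h and 1 and 2 at 48 h (exact p = 0.9996). Another region, 619 bp away, was called in 15. The median rank was 60.5% at CDT1 and 65.6% at E2F2, over the libraries with a call.

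Summits lay close to the starts. The median of the members' summits stood 95 bp upstream of the start (−95 bp), 14 of 31 were within 100 bp of it and 23 were upstream. Positions differed between libraries by a median range of 107 bp. For TYMS, the thymidylate synthase gene, the summit was downstream of the start in every library, between 615 and 686 bp. CDC45 behaved alike at 309 to 394 bp. MCM7 had summits at a median of 702 bp but at −135 bp in its lowest library, so its broad region of 2007 bp held more than one high point. ORC6 and AURKB, an origin recognition subunit and Aurora kinase B, had their summits upstream of the start used here, at medians of −386 and −328 bp. For AURKB that start lay 326 bp inside the RefSeq extent of the gene. Its median summit therefore lay close to the outer end of that extent.

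**Figure D2:**
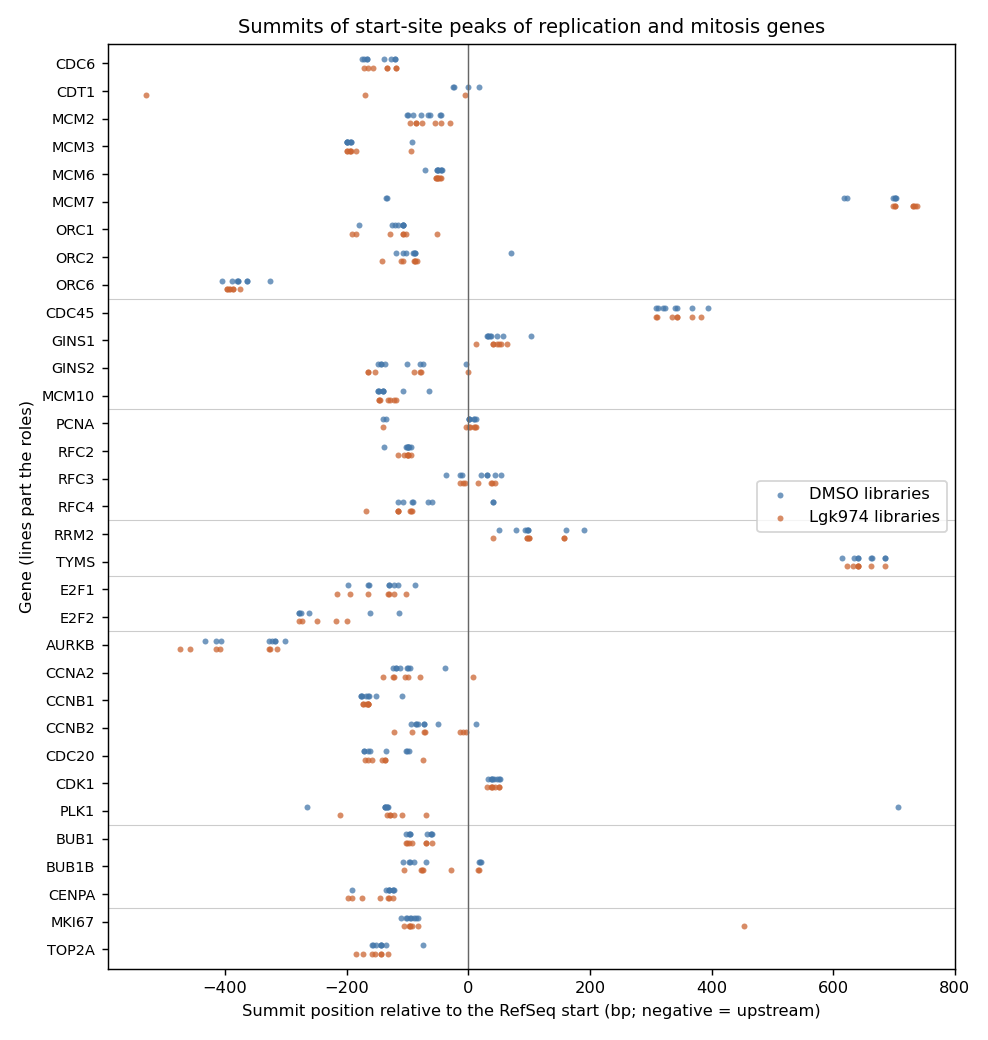
Summit positions of the start-site peaks are plotted by gene in bp from the RefSeq start, 1 point per library, with negative values upstream and lines between roles. Most points lie near the median of −95 bp, and those of TYMS (median 640 bp), CDC45 (340 bp) and ORC6 (−386 bp) lie apart from it.

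Regions at gene ends were mostly constant, and those near the genes mostly were not. Of the 58 end regions, 37 (63.8%) were called in all 15 libraries and 8 in 1 library, against 48.2% called in all among 21185 end regions of all protein-coding genes. Of the 523 near regions, 137 (26.2%) were called in all and 158 in 1, against 13.7% of 150402 near regions of all protein-coding genes. Member near regions could include ends of other genes, while the 150402 left out the ends of every protein-coding gene. The shares are therefore not like for like, and the effect of this was not tested. The constant end regions had a median width of 1258 bp, and those of all protein-coding genes 1275.5 bp.

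No region of these genes differed between Lgk974 and DMSO after adjustment for all tests. Over both times, 60356 regions called in 3 to 12 libraries were tested by exact permutation of treatment labels within each time, and the smallest Benjamini-Hochberg adjusted p was 0.418. Of these, 147 were regions of the member genes. At an unadjusted p under 0.05, 3 of the 147 (2.04%) had more calls with Lgk974, against 2.96% of all tested regions, and 5 (3.4%) had fewer, against 3.08%. Both counts changed with single libraries. The count of 3 became 1 without DMSO 24 h replicate 1, 2 or 4, DMSO 48 h replicate 2, 3 or 4, Lgk974 24 h replicate 1 or 2, or Lgk974 48 h replicate 1 or 2, and 5 without Lgk974 48 h replicate 3. The count of 5 became 1 without DMSO 48 h replicate 1 or 2, 2 without DMSO 24 h replicate 1 or 2, DMSO 48 h replicate 3 or Lgk974 48 h replicate 1 or 3, and 3 without DMSO 48 h replicate 4 or Lgk974 24 h replicate 3 or 4. Without the 3 libraries that stood apart there were 6 and 1, and with labels permuted only within replicate number 1 and 0.

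**Figure D3:**
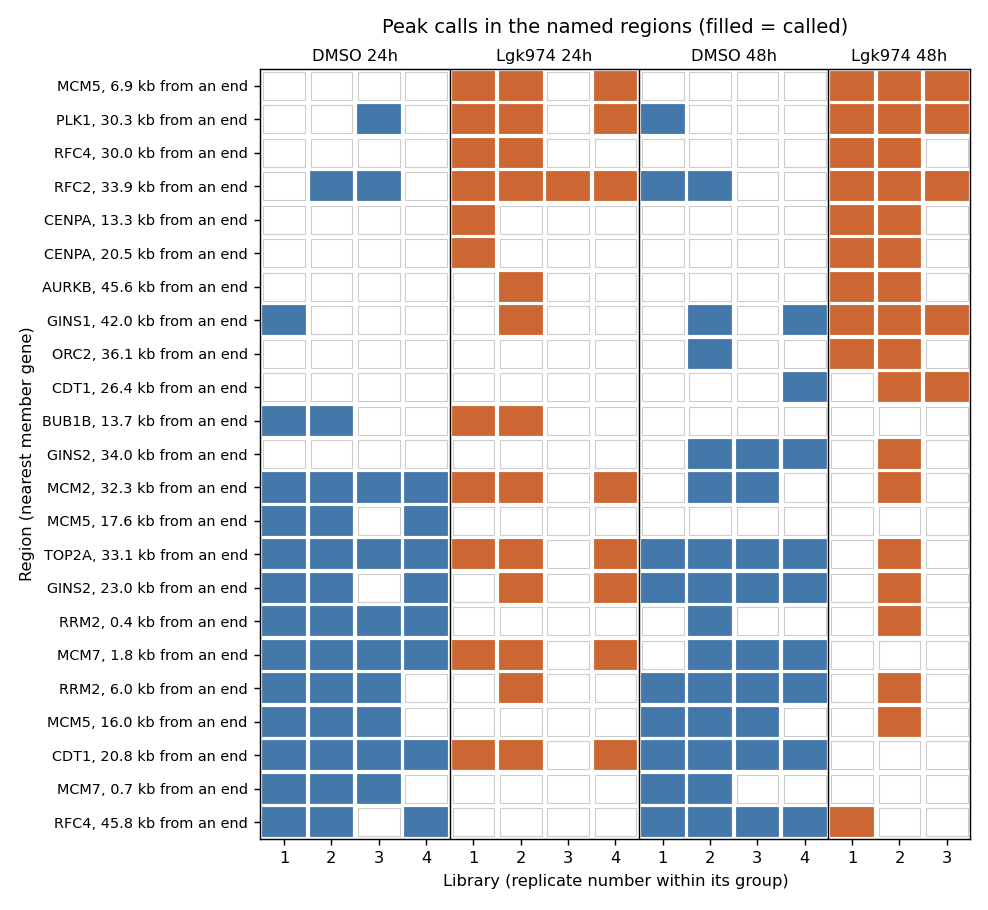
Calls in 23 of the 24 regions chosen by rule are shown, 1 row per region with its nearest member gene and the distance to that gene's end in kb, 1 column per library, filled where the region was called. The top row, inside MCM5, is filled in 6 Lgk974 columns and in 0 DMSO columns, and the bottom row, near RFC4, in 7 DMSO columns and 1 Lgk974 column.

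In the licensing genes the smallest p was found inside MCM5, a helicase subunit. The region chr22:35447517-35448179, 663 bp wide and 6852 bp from an end of the gene, was called in 0 of 8 DMSO libraries, in 3 of 4 Lgk974 libraries at 24 h (not in replicate 3) and in 3 of 3 at 48 h (exact p = 0.00204, adjusted p = 0.418). The treatments did not overlap at 48 h, and at 24 h the Lgk974 library without the call had the shortest list. The next shortest list, Lgk974 48 h replicate 3 with 57708 peaks, had the call. When every list was reduced to its 53610 strongest peaks, 1 of the 6 libraries still called it. With labels permuted within replicate number its exact p was 0.0312. A second MCM5 region outside the gene, chr22:35470992-35471474, went the other way, with 6 DMSO libraries (3 at each time) and 1 Lgk974 library at 48 h (exact p = 0.0469, adjusted p = 0.772). Another region inside the gene, chr22:35437105-35437384, was called in 3 DMSO libraries at 24 h and in no other.

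Near CDT1, a region in PIEZO1, chr16:88782396-88782981, was called with DMSO in 4 of 4 libraries at each time, and with Lgk974 in 3 of 4 at 24 h and 0 of 3 at 48 h (exact p = 0.0143, adjusted p = 0.654). It was 1 of the 2 member regions whose calls did not overlap between treatments at 48 h, the other being the one inside MCM5; of all tested regions, 0.811% had more and 1.33% fewer calls there at an unadjusted p under 0.05. Beside MCM7, chr7:100091353-100092038 lies within 1 kb of the gene's far end and inside COPS6, so it belongs to either gene. It was called in 3 DMSO libraries at 24 h, 2 at 48 h and no Lgk974 library (exact p = 0.0306, adjusted p = 0.666). A neighbouring COPS6 region, chr7:100090482-100090977, was called in 7 of 8 DMSO libraries and in 3 of 7 with Lgk974, all 3 at 24 h (exact p = 0.0714).

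Among the genes of the sliding clamp and its loader, the smallest p for fewer calls was found near RFC4. A region 45848 bp from RFC4 and 358 bp from an end of KNG1, chr3:186742981-186744052, was called with DMSO in 3 of 4 libraries at 24 h and 4 of 4 at 48 h, and with Lgk974 in 0 of 4 and 1 of 3 (exact p = 0.0102, adjusted p = 0.543). Another region on the KNG1 side, chr3:186759582-186759889, showed the opposite order, with 0 of 8 DMSO libraries and 4 of 7 Lgk974 libraries, 2 at each time (exact p = 0.0306, adjusted p = 0.666). For RFC2 a region at an end of CLIP2 was called with DMSO in 4 libraries and with Lgk974 in all 7 (exact p = 0.0918). So regions near the same gene differed in opposite directions, none past adjustment.

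Of the regions named here, 2 lay in or near RRM2, both with fewer calls under Lgk974. Inside the gene, chr2:10204432-10205053 was called in 3 DMSO and 1 Lgk974 library at 24 h and in 4 and 1 at 48 h (exact p = 0.0388, adjusted p = 0.741). Just upstream of the start, 372 bp away, chr2:10121778-10122196 was called in 4 of 4 DMSO libraries and 0 of 4 Lgk974 libraries at 24 h (exact p = 0.0286, the smallest that 4 against 4 libraries allow) but in 1 of each treatment at 48 h. Over both times its exact p was 0.120. In the helicase activation genes, a region near GINS2 within GSE1, chr16:85652451-85653237, was called with DMSO in 7 libraries and with Lgk974 in 3 (exact p = 0.0918).

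In the mitotic group, PLK1, the Polo-like kinase that drives entry into and exit from mitosis, had a region 30307 bp away at chr16:23720674-23721086, toward ERN2, that was called in 1 DMSO and 3 Lgk974 libraries at each time (exact p = 0.0396, adjusted p = 0.741). For AURKB a region by VAMP2, and for CENPA a pair of regions in SLC35F6, were each called with Lgk974 in 3 libraries and with DMSO in 0 (exact p = 0.0714 each). TOP2A, which untangles chromosomes before they part, had a region in RARA called with DMSO in 8 of 8 libraries and with Lgk974 in 4 of 7 (exact p = 0.0714). Most of these regions lie closer to another gene than to the member, and which gene they serve was not measured. When every list was reduced to its 53610 strongest peaks, 16 of the 24 regions chosen by rule had no call in any library. No peak in those 16 regions was thus among the 53610 strongest of its library. The part of list length in these calls was not tested.

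Within a single time the tests were coarse. At 24 h, 0 of 141 member regions had more calls with Lgk974 at an unadjusted exact p under 0.05 and 1 (0.709%) had fewer, the region upstream of RRM2, against 0.127% and 0.347% of 55887 regions. At 48 h, 1 of 119 (0.84%) was called more often, the MCM5 region, and 1 less often, the CDT1 region in PIEZO1, against 0.811% and 1.33% of 48833. No region passed adjustment at either time, where the smallest adjusted p was 1 at 24 h and 0.737 at 48 h. Permuted within replicate number, all 4 counts were 0, because such tests cannot give an exact p under 0.125 at 24 h or 0.25 at 48 h.

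No region differed with time after adjustment (exact permutation, smallest adjusted p = 1). Between 24 h and 48 h within each treatment, 1 of 147 member regions had more calls at 48 h, against 1.25% of all tested regions, and 0 had fewer, against 0.504%, at an unadjusted p under 0.05. The 1 region lay near GINS2 in GSE1, at chr16:85641763-85642198, and was called in 0 of 8 libraries at 24 h and in 3 DMSO and 1 Lgk974 library at 48 h (exact p = 0.0306). Next came a region near CDT1 in GALNS and one near ORC2 in PPIL3, each called in 0 libraries at 24 h and 3 at 48 h (exact p = 0.0714). In the other direction, a region near BUB1B, a spindle checkpoint kinase gene, was called in 2 DMSO and 2 Lgk974 libraries at 24 h and in 0 at 48 h (exact p = 0.0918). The count of 1 became 0 without replicate 2, 3 or 4 of DMSO at 24 h or at 48 h, without any 1 of the 4 Lgk974 libraries at 24 h, or without replicate 2 of Lgk974 at 48 h. It became 2 when replicate 1 or 3 of that group was left out. With labels permuted within replicate number it was 0.

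Detection excess was then taken over each whole set. It is the share of the set's regions called in a library minus the share that library called among all regions found in as many libraries, in percentage points, which allows for list length. At the gene ends it was 3.29 ± 2.55 (SD, n = 4) with DMSO and −1.82 ± 2.48 (n = 4) with Lgk974 at 24 h, and 0.375 ± 1.61 (n = 4) and −2.45 ± 1.15 (n = 3) at 48 h. All 7 Lgk974 libraries lay below the DMSO mean of their time, and the mean difference was −3.97 points, against −0.47 points at the ends of all protein-coding genes, where 6 of 7 lay below. Only 21 of the 58 regions vary between libraries and can contribute. With equal numbers of peaks in every library the difference turned to 0.543, with fixed windows around summits it was −1.04, and where peaks had to cover 50% of a region it was −7.64. Without the 3 libraries that stood apart it was −4.67.

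**Figure D4:**
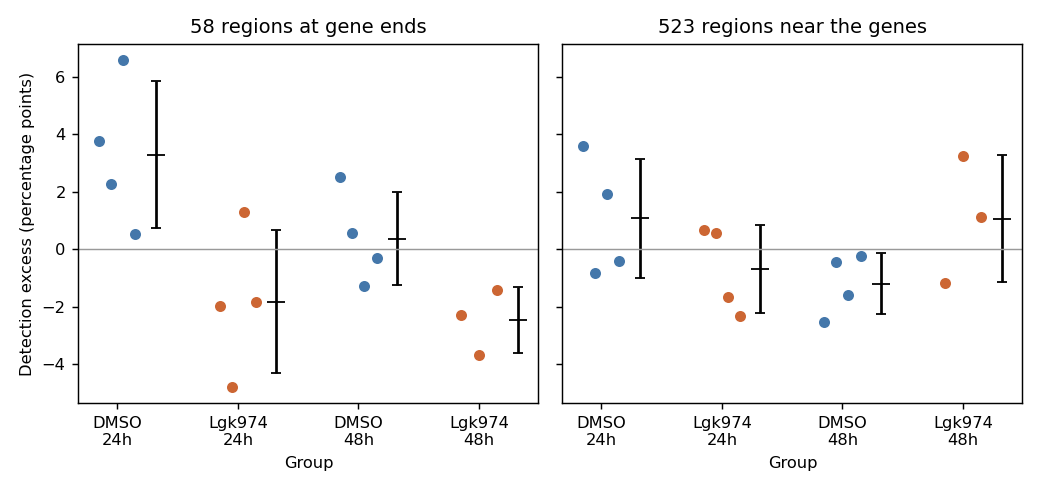
Detection excess in percentage points is plotted per library for end regions (left) and near regions (right) in the 4 groups, DMSO in blue and Lgk974 in orange, with group mean and SD as black bars. At gene ends the means run from 3.29 with DMSO at 24 h to −2.45 with Lgk974 at 48 h, and at near regions they lie between −1.19 and 1.08.

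By role, the negative difference at gene ends was largest for nucleotide supply (RRM2 and TYMS, −15.5 points over 3 varying regions), E2F factors (−15.2 over 3) and the mitotic cyclins and kinases (−5.87 over 5). Origin licensing was at −3.89 over 4. Helicase activation (2.82 over 3), the clamp and loader (1.61 over 1) and the spindle checkpoint and centromere (5.35 over 1) were on the other side of 0, so the roles did not share a direction. Near regions differed by −1.76 points between treatments at 24 h and by 2.26 points at 48 h, a mean of 0.25, with 4 of 7 Lgk974 libraries below the DMSO mean.

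Neighbourhoods of single genes, with all regions inside or within 50 kb, were compared with those of 18326 protein-coding genes. Of 35 members with 5 or more regions, 19 were above 0 and 16 below for Lgk974 minus DMSO, with a median of 0.16 points against 0.12 for all genes, whose middle 90% ran from −7.84 to 8.11. At an unadjusted exact p under 0.05, 1 member was higher and 0 lower, against 7.16% and 5.04% of all genes, and no gene passed adjustment (smallest adjusted p = 0.139). The member was CDC6, whose product loads the MCM helicase. Its excess was −2.54 ± 6.39 (SD, n = 4) with DMSO and 4.04 ± 5.79 (n = 4) with Lgk974 at 24 h, and −3.53 ± 5.15 (n = 4) and 2.71 ± 1.72 (n = 3) at 48 h. This is a difference of 6.41 points (exact p = 0.0343, adjusted p = 0.364), with the same sign at both times. By p, RFC2 followed at 4.63 points (exact p = 0.0624), and the most negative was GINS2 at −5.80 (exact p = 0.103). With labels permuted within replicate number, the exact p of CDC6 was 0.0625 and the 1 member under 0.05 was RFC2, at 5.4 points (exact p = 0.0156), with no gene past adjustment. CCNA2 had too few regions for the test.

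Constant regions could still differ in width, a comparison added after the lists were seen. Width was the covered length of a region in a library on a log2 scale, minus that library's median over the 35389 regions that all libraries called. Among the 37 constant end regions of the members, 1 (2.7%) was wider and 9 (24.3%) were narrower with Lgk974 at an unadjusted exact p under 0.05, against 6.17% and 6.3% of all constant regions. At the ends of all protein-coding genes, 1.93% of 10206 were wider and 6.99% narrower, and at the other pathway genes 0 and 7 of 87 (8.05%). The median difference was −0.11 on the log2 scale at member ends, −0.04 at all protein-coding ends and −0.06 at the other pathway genes. No region passed adjustment over the 35389 (exact permutation, smallest adjusted p = 0.0609 over all of them and 0.145 at member ends).

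**Figure D5:**
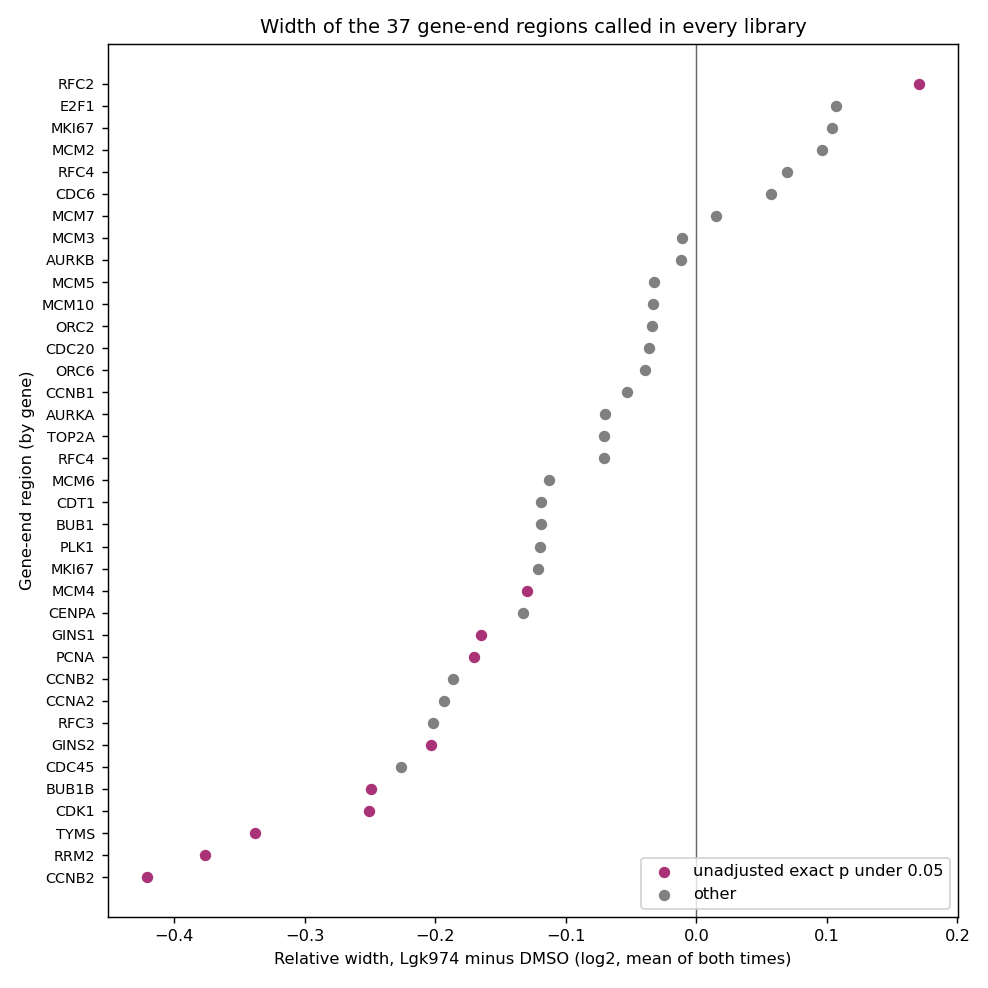
The difference in relative width between Lgk974 and DMSO (log2, mean of both times) is plotted for each of the 37 member end regions called in every library, sorted, with regions at an unadjusted exact p under 0.05 in purple. The values run from −0.42 at CCNB2 to 0.17 at RFC2, and 9 of the 10 purple points lie below 0.

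CDK1, the kinase at the centre of mitotic entry, had the smallest p among the narrower ends. Its start region measured 820 to 1073 bp with DMSO (median 867) and 468 to 1005 bp with Lgk974 (median 854), a relative difference of −0.25 (exact p = 0.00408, adjusted p = 0.145). At the RRM2 start the widths were 446 to 630 bp with DMSO (median 544) and 257 to 583 bp with Lgk974 (median 437), a difference of −0.38 (exact p = 0.00694, adjusted p = 0.177). The far end of CCNB2 went from a median of 609.5 bp with DMSO (489 to 775) to 527 bp with Lgk974 (215 to 629), a difference of −0.42 (exact p = 0.0102, adjusted p = 0.208). In all 3 the ranges of the treatments overlapped. The other narrower ends were at TYMS (−0.34), BUB1B (−0.25), GINS2 (−0.20), PCNA (−0.17), GINS1 (−0.17) and MCM4 (−0.13), a range of roles from nucleotide supply to the spindle checkpoint, and the wider end was at RFC2 (0.17). The adjusted p of these 7 ran from 0.230 to 0.391. At BUB1B the median width was 751 bp with DMSO and 752 bp with Lgk974, and the lowest values were 667 and 289 bp. Its relative width had an SD of 0.09 with DMSO and 0.33 with Lgk974. At TYMS these SDs were 0.13 and 0.41, at CDK1 0.12 and 0.26, at the far end of CCNB2 0.22 and 0.36, and at MCM4 0.07 and 0.14. Low values in some Lgk974 libraries weigh on these differences. The SDs were alike at RRM2 (0.27 and 0.25), PCNA (0.15 and 0.16) and GINS1 (0.13 and 0.13), and 0.10 and 0.19 at GINS2. The MCM4 region also covers an end of PRKDC.

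These counts changed with single libraries. Over the 37 end regions, Lgk974 48 h replicate 3 had a median relative width of 0.19, against 0.42 to 0.67 in the other 14 libraries. Without it 5 of 37 ends were narrower, against 5.96% of all constant regions. With labels permuted within replicate number 6 of 37 were narrower and 0 wider, against 5.38% and 6.18% of all constant regions. Without the 3 libraries that stood apart, 2 of 39 were narrower and 2 wider, against 7.35% and 6.01%. Where peaks had to cover 50% of a region, 0 of 11 were narrower, against 6.94%. In neither of these last settings did narrower ends exceed the share over all constant regions. The single wider end was lost without DMSO 48 h replicate 1 or Lgk974 48 h replicate 1 or 3.

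Away from the ends, 3 constant near regions reached the smallest p that the design allows (exact p = 0.000408, adjusted p = 0.0609). They were 2.19% of the 137 constant near regions, against 0.67% of all constant regions and 0.814% of those near all protein-coding genes. A region in GSE1, chr16:85644934-85645741, 30457 bp from GINS2, was narrower with Lgk974 by a log2 difference of −0.51, at 297 to 717 bp (median 555) against 581 to 808 bp (median 712) with DMSO. In PODXL2, 29525 bp from MCM2, chr3:127651961-127652878 was narrower by −0.47, with 235 to 522 bp (median 444) against 481 to 796 bp (median 563.5). A region in TMEM230, chr20:5065490-5066482, 48471 bp from PCNA, was wider by 0.28, with 790 to 945 bp (median 888) against 518 to 848 bp (median 793). In relative width the DMSO and Lgk974 libraries overlapped in the GSE1 and PODXL2 regions, while in the TMEM230 region the lowest Lgk974 value (0.28) lay above the highest DMSO value (0.27). Over all 137 constant near regions, 5 (3.65%) were wider and 7 (5.11%) narrower at an unadjusted exact p under 0.05, against 7.72% and 5.96% of 20635 near all protein-coding genes. The 137 could include ends of other genes, which the 20635 left out. Shares set against the 20635 are therefore not like for like, and the effect of this was not tested.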

How the data were processed

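The submitters' processing notes name Bowtie2, MACS2 and hg38 among other tools; versions, settings and any shift of reads for the transposase were not given in the sources used here. Those choices bear on which weak peaks were listed and on peak edges. The authors deposited 1 peak list per library, called separately. Each deposited peak carries a score, a fold over background (a ratio), and −log10 p and −log10 q values from the authors' caller. The −log10 p was used to rank and the −log10 q to filter peaks within a list, and no value was compared between libraries. The growth protocol also describes KATO III cells; the labels name HPAF-II for all 15 libraries.

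Peaks were merged into regions in numpy 2.4.6 and pandas 2.3.3 under Python 3.11.15. Unplaced and other contigs, with 1138 peaks, were left out, and 1 damaged line was read as chromosome 1. Gene extents and starts came from RefSeq tables on GRCh38.p14. Regions called in 3 to 12 libraries (2 to 6 at 24 h, 2 to 5 at 48 h) were tested by two-sided exact permutation (2450, 70 and 35 assignments; smallest p 0.000408 and 0.0286 for either time) with Benjamini-Hochberg adjustment over all tested regions. The code was tested on simulated calls. The regions named were, in each direction, up to 8 with the smallest p over both times, up to 5 for each time and direction whose calls separated the treatments fully, and up to 4 for time; 1 of these regions is not reported here. The members and gene lists were chosen with earlier results of these data known.

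Replicate numbers are shared between groups. Deviations from group means correlated between same-numbered DMSO and Lgk974 libraries at 0.102 to 0.142 at 24 h, and at 0.146, −0.0321 and 0.084 at 48 h. Every pair passed a threshold of 0.1 at 24 h, and not every pair did at 48 h. At 24 h, however, the best match of DMSO replicate 1 was Lgk974 replicate 2, and that of DMSO replicate 3 was Lgk974 replicate 4. DMSO replicates 2 and 4 matched their own number best. Whether the numbers mark pairs was therefore not settled. Between 24 h and 48 h, same-numbered DMSO libraries correlated at 0.124 to 0.197, every pair over 0.1, and Lgk974 libraries at 0.113, −0.0254 and 0.260, not every pair. Tests with labels permuted within replicate number (128 assignments over both times, without DMSO 48 h replicate 4, which has no partner) stand beside the counts they change. Alternatives were equal numbers of peaks, a stricter −log10 q of at least 5, 50% cover, fixed windows of 250 bp on each side of summits, other distances, and leaving out each library.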

Additional observations from a re-analysis of the deposited data

Results flagged for a closer look

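Lgk974 24 h replicate 3 called 31.74% of the 523 regions near the replication and mitosis genes, and the other 3 libraries of its group called 50.7% to 54.1%. It stood apart because the gap to its nearest neighbour filled most of the range of the group, which chance gives in about 1 in 20 groups. Its list was also the shortest, with 53610 peaks, and its detection excess near the genes, which allows for list length, was −1.67 points, inside the group's range of −2.32 to 0.678. The part of list length in this value was not tested.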

How the results depend on the processing

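Under every alternative in which they were tested, 0 of all regions and 0 gene neighbourhoods passed adjustment. The 23 named regions with a difference other than 0 kept its sign where they could be tested. They were chosen from these same calls, so a kept sign is no separate support. The other named region, near BUB1B, had a difference of 0 and ranged from −0.125 to 0.0833. With equal numbers of peaks 2 of the 24 could still be tested, and 16 had no call in any library. A region near GINS1, with a difference of 0.25 in the main calls, then had 1 DMSO and 0 Lgk974 calls and was not tested. Member genes with an end called in every library stayed at 34 without any 1 library and were 12 where peaks had to cover 50% of a region. Over both times, member regions called more and less often with Lgk974 numbered 6 and 1 with equal numbers of peaks, 5 more often with 50% cover, and, in alternatives added after seeing the data, 5 and 0 with equal numbers without DMSO 24 h replicate 3, and 6 and 1 without the 3 libraries that stood apart. Leaving out each library gave 1 to 5 and 1 to 6.

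At 24 h, 1 region was called more often with the stricter threshold and with equal numbers without DMSO 24 h replicate 3; less often, 0 with equal numbers and without the 3 libraries, and 3 with the stricter threshold. Leaving out each library gave 0 to 1 and 1 to 6: the lower count was 6 without replicate 3 and 4 without replicate 4 of DMSO and 3 without Lgk974 replicate 2, and the higher count was 1 without DMSO replicate 1 or Lgk974 replicate 3. At 48 h, 2 were called more often with equal numbers (also without DMSO 24 h replicate 3) and with fixed windows, 0 with 50% cover and without the 3 libraries; less often, 2 with 50% cover and with the stricter threshold, 0 without the 3 libraries. Leaving out any 1 of the 7 libraries at 48 h gave 0 in both directions (0 to 1 over all 15), as the smallest p then exceeds 0.05. For 48 h against 24 h, higher counts were 2 with equal numbers and 50% cover, 0 with the stricter threshold and without the 3 libraries; lower counts were 1, 1, 3 and 1 with equal numbers, with equal numbers without DMSO 24 h replicate 3, with 50% cover and with the stricter threshold, and 1 without the 3 libraries. Leaving out each library gave 0 to 2 and 0 to 1, the latter without DMSO 24 h replicate 3.

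The detection excess difference between treatments at gene ends was 0.54 with equal numbers of peaks, 1.38 with equal numbers without DMSO 24 h replicate 3, −1.04 with fixed windows and −7.64 with 50% cover, and −4.64 to −3.32 without each library. For 48 h minus 24 h it was 0.82 with equal numbers without DMSO 24 h replicate 3 and −2.31 to −1.19 without each library. At near regions the treatment difference was −0.37 to 0.88 without each library, and the time difference −2.26 within 20 kb and −0.93 to 0.31. Narrower ends numbered 5 to 10 without each library, 2 without the 3 libraries and 0 with 50% cover. Wider ends numbered 0 to 1, 2 and 0 in the same order. Over all constant regions, 7.35% were narrower without the 3 libraries and 6.94% with 50% cover. The median width difference stayed between −0.11 and −0.08 without each library. The cause of these shifts was not tested.

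With the replicate block, regions called more and less often numbered 1 and 0 over both times, 0 and 0 at 24 h, 0 and 0 at 48 h, and 0 and 0 for time, and 6 ends were narrower and 0 wider. No region and no gene neighbourhood passed adjustment with it; for neighbourhoods and width the block was added after seeing the data.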
